A study of Arabidopsis thaliana with 12 samples.

Results

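Seedlings of Arabidopsis thaliana labelled fas2-4 were compared with wild-type Columbia-0 (Col-0) seedlings that carry the same group label, with 3 libraries of each genotype. The libraries, 6 of the 12 samples of the series, were taken by their labels. All genes that passed a filter on low counts were followed, 20004 of the 32833 in the count table. Per the labels, seeds were kept at 4 °C for 4 days, plants were grown on a soil mixture under long days at about 21 °C, and the seedlings were taken 12 days after they germinated. The genotype is the only difference the labels give between these fas2-4 and Col-0 samples. How many seedlings made a sample, and whether the samples came from separate sowings, is not given, so p-values measure the spread between these samples. The nature of the fas2-4 allele is not given in the labels either.

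FAS2 is the middle subunit of chromatin assembly factor 1 (CAF-1), a histone chaperone that follows the replication fork and places new H3 and H4 on the daughter strands. Its partners in plants are FAS1 and MSI1, and MSI1 also serves other chromatin complexes. Plants without CAF-1 are viable, with disturbed meristems and leaves, a standing DNA damage response and loss of repeated DNA at ribosomal gene arrays and telomeres. In plants the DNA damage response runs through the kinases ATM and ATR and the transcription factor SOG1, which turns on cell cycle inhibitors and repair genes.

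FAS2 (AT5G64630) was measured at 7.1, 7.68 and 6.94 CPM in Col-0 and 5.05, 4.91 and 6.5 CPM in fas2-4. CPM are counts scaled to library size and the TMM library factor, listed as replicates 1, 2 and 3 of each genotype. All 3 mutant values were below all 3 wild-type values, but the difference did not pass the test (log2 fold change -0.40, SE 0.16, adjusted p = 0.156). The test was edgeR's quasi-likelihood test, with Benjamini-Hochberg adjustment over all 20004 genes and a threshold of 0.05, and the same test gives every adjusted p below. FAS1, the large subunit, had a log2 fold change of +0.04 (adjusted p = 0.957) and MSI1 one of +0.08 (adjusted p = 0.733). Gene-level counts do not show where in the FAS2 transcript the reads fall, so this level neither bears out nor contradicts the label.

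The seedling label was read against tissue markers. All 12 green leaf markers were detected, with a summed level of 89558 to 103260 CPM in Col-0 and 64848 to 70932 CPM in fas2-4. Of 18 root markers only 6 passed the filter. Their list summed to 156 to 187 CPM in Col-0 and 149.8 to 180 CPM in fas2-4, and the root hair genes EXPA7 and RHD6 had no reads. The Casparian strip gene CASP1 stayed below 0.19 CPM in each library, while SCR, at 33.2 to 54.3 CPM, and BGLU23, at 85.4 to 119 CPM, made up most of the list's sum. In bulk RNA of this kind, fewer cells of a type and less RNA per cell cannot be told apart.

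The 6 libraries held 39258873 to 39510509 counts each, a narrow range that covers both genotypes. The first principal component (51.5% of the variance) separated the genotypes and the second (32.5%) separated fas2-4 replicate 1 from fas2-4 replicates 2 and 3. Replicate 1 correlated with replicates 2 and 3 at r = 0.975 for each, across genes, while replicates 2 and 3 correlated at r = 0.9953. With the Col-0 libraries, fas2-4 replicate 2 correlated at r = 0.9789 to 0.9835 and replicate 3 at r = 0.9763 to 0.9798. Both thus correlated more with each Col-0 library than with fas2-4 replicate 1. The values of replicate 1 followed transcript length. Genes with 500 up to 1000 exonic bases had a median deviation from the Col-0 mean of +0.25, on the log2(CPM + 1) scale, in replicate 1 and of -0.05 and -0.07 in replicates 2 and 3. Genes of 3000 bases or more had -0.41 in replicate 1 and +0.19 in both others. The Col-0 libraries stayed within 0.04 of 0 in every length class drawn. Counts of called list members are therefore also given without replicate 1.

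**Figure D1:**
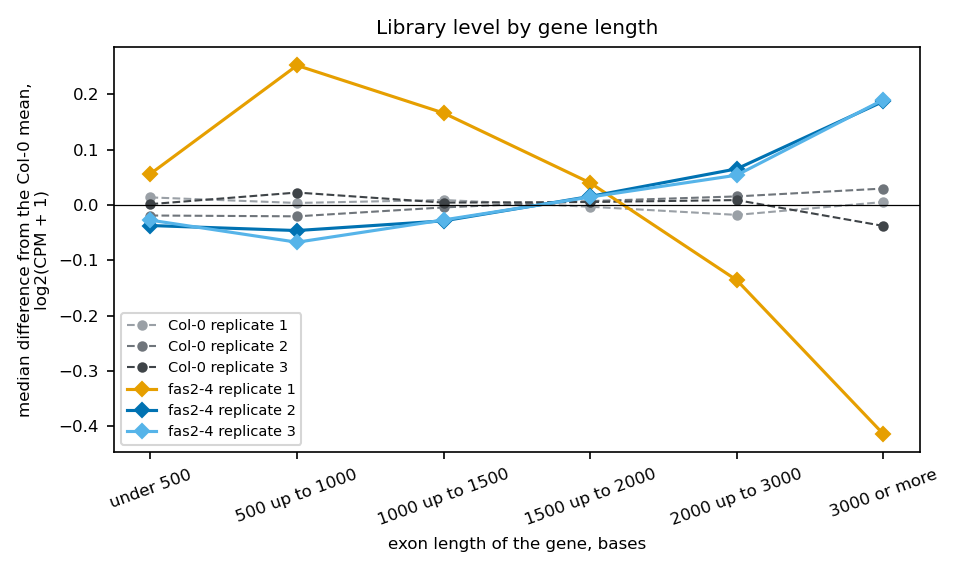
Median log2 deviation of each library from the Col-0 mean (vertical axis) by class of exonic length in bases (horizontal axis), for the tested genes, 1 line per library. The line of fas2-4 replicate 1 falls from +0.25 for genes of 500 up to 1000 bases to -0.41 for genes of 3000 bases or more, and those of fas2-4 replicates 2 and 3 rise to +0.19.

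Replicate 1 also stood apart in individual genes. Of 14964 genes reaching 5 CPM in any library, 86 were at least 2-fold above both other mutant libraries in replicate 1 and 319 at least 2-fold below them. In the 5 other libraries the same counts were 0 to 4 above and 1 to 18 below. The 10 widest gaps were all genes high in replicate 1, and several are known as jasmonate-responsive defence genes. PDF1.2c, a plant defensin, stood at 6.92, 51 and 45 CPM in Col-0 and 134, 4.77 and 1.57 CPM in fas2-4. THI2.1, a thionin, stood at 0.78, 0.43 and 0.796 CPM in Col-0 and 21.3, 0.427 and 0.185 CPM in fas2-4. For both, replicate 1 lay far above every other library, and for PDF1.2c replicates 2 and 3 lay below all 3 Col-0 libraries. VSP1, a vegetative storage protein, reached 193, 26.5 and 6.75 CPM in fas2-4 against 4.6, 6.15 and 9.3 CPM in Col-0. The others were the defensins PDF1.2, PDF1.3 and PDF1.2b, the acetyltransferase NATA1, the methionine sulfoxide reductase MSRB7, the salicylate methyltransferase BSMT1 and the dioxygenase DIN11. None of the 10 passed the test, and without replicate 1 the log2 fold changes of 9 of them were below 0, as with -3.46 for PDF1.2c. The defensin genes are close copies, so the split of reads among them is uncertain.

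**Figure D2:**
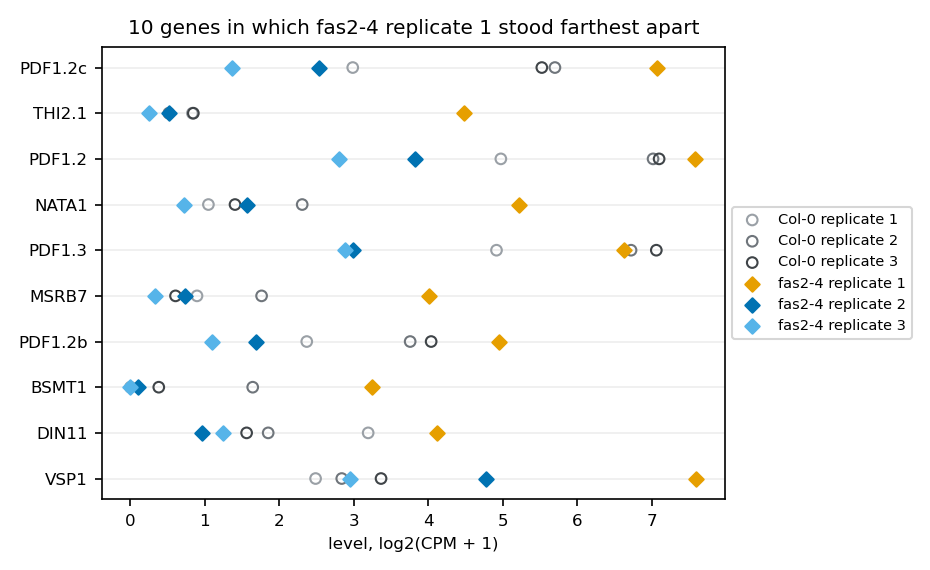
Expression of the 10 genes with the widest gap between fas2-4 replicate 1 and the other 2 mutant libraries, in TMM-scaled CPM on a log2(CPM + 1) axis, 1 point per library. For PDF1.2c, replicate 1 is at 134 CPM and replicates 2 and 3 are at 4.77 and 1.57 CPM.

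In all, 1948 of the 20004 tested genes (9.74%) were called, 1356 higher (6.78%) and 592 lower (2.96%) in fas2-4. Of these, 831 rises and 162 falls were at least 2-fold, and 253 rises (1.26%) at least 4-fold. The balance of rises and falls moved with the method. RLE scaling called 1279 up and 653 down, DESeq2, which also tested more genes, 1717 up and 1206 down, and a correction for length called 1926 up (9.63%) and 1407 down (7.03%). Without fas2-4 replicate 1, 5661 genes (28%) were called, 2877 up (14.2%) and 2784 down (13.8%), and 1928 of the 1948 calls were among them. Leaving out fas2-4 replicate 2 or 3 left 1453 or 1039 calls, and leaving out 1 Col-0 library left 643 to 725. In each of the 6 fits without 1 library, 519 calls were kept, 409 up and 110 down. The all-gene median log2 fold change was +0.03. Among the genes named, AFB4, AHP2, ARR6, AS1, ASY1, AT4G01700, ATR, AUR1, AUR2, AUR3, BGLU23, BSMT1, CAT2, CER2, CKX1, CRK45, CYP71A13, DCL1, EDS5, EFR, FLC, FLS2, FLU, FRK1, GMI1, HTB9, IAA5, KN, KU70, LIG4, LOX1, MSH4, MSI1, MYB3R5, PAD2, PRK, RAD17, RAD50, RDR1, RNR2A, RPT5B, SARD1, SOBIR1, SPL9, SPO11-2, THI2.1, TT4, UGT74F1 and VEP1 overlap a counted gene on the other strand. POK2, SPO11-1 and TSO2 overlap one on the same strand. The use of strand is not known here, so their values are uncertain.

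The largest rises came from few or no reads in wild type. AT1G75600, annotated as a histone superfamily protein, had no reads in any Col-0 library and 6.46, 5.91 and 5.99 CPM in the mutant. With a floor of 3 counts over the Col-0 group this is at least 229-fold higher (adjusted p = 8.28e-05). Beside it, 2 further called genes with at least 1 CPM in fas2-4 had no wild-type reads and are named for that reason, after their values were seen. AT2G24255, an F-box and kelch repeat protein, reached 3.59, 4.34 and 4.46 CPM, at least 154-fold higher. AT1G20750, a RAD3-like DNA helicase, reached 0.897, 2.25 and 2.61 CPM, at least 71.8-fold higher. These genes were thus listed with reads in the mutant libraries only, in all 3 of them. AT4G22960, a DUF544 protein, rose from 0.234, 0.161 and 0.165 to 16.2, 18.7 and 15.3 CPM (log2 fold change +6.46, SE 0.21, adjusted p = 3.08e-06). AT2G18193, annotated as a nucleoside triphosphate hydrolase, rose from 0.52, 0.403 and 0.467 to 35, 31.7 and 31.1 CPM (log2 fold change +6.13, SE 0.17, adjusted p = 1.61e-06). AT1G75945, uncharacterized, rose from 0.104, 0.0268 and 0 to 15.9, 10.5 and 11.2 CPM (log2 fold change +8.04, SE 0.46, adjusted p = 7.4e-05). The 15 largest rises were taken from genes whose groups do not overlap. The uncharacterized AT1G65483 was the 1 of them not called in every fit with a library left out.

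**Figure D3:**
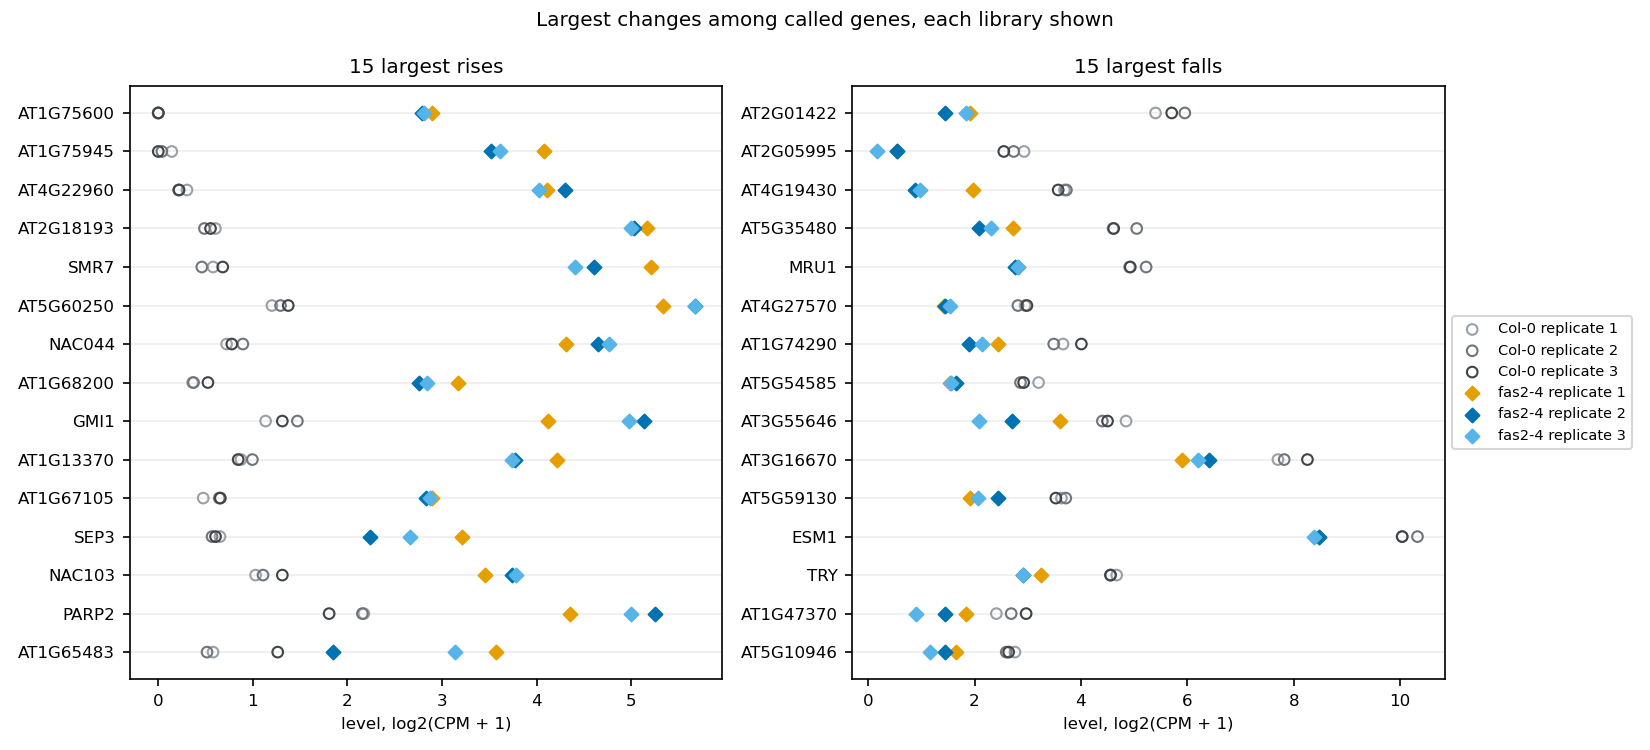
Expression of the 15 largest rises and 15 largest falls among called genes that reach a group mean of 5 CPM, in TMM-scaled CPM on a log2(CPM + 1) axis, 1 point per library. Genes were taken only where Col-0 and fas2-4 points do not overlap.

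Genes of the DNA damage checkpoint were among the strongest rises. Of 23 tested members, 8 rose and 1 fell, with a median log2 fold change of +0.34. Of all tested genes, 6.78% were called up and 2.96% down. Without fas2-4 replicate 1, 9 members were up and 1 down, where 14.2% and 13.8% of all genes were. The same shares of all genes apply to the lists and families below. The lists were chosen with earlier results of these data known, so list shares describe the members and test nothing. SMR7, an inhibitor of cyclin-dependent kinases, rose from 0.494, 0.376 and 0.604 to 36, 23.3 and 20.2 CPM (log2 fold change +5.74, SE 0.30, adjusted p = 5.94e-05). NAC044, a NAC factor that halts the cell cycle at G2 after damage, rose from 0.65, 0.859 and 0.714 to 18.9, 24.1 and 26.2 CPM (log2 fold change +4.95, SE 0.20, adjusted p = 1.25e-05). Its close relative NAC085 rose from 0.026, 0.107 and 0.0274 to 2.28, 2.33 and 2.22 CPM (log2 fold change +5.33, SE 0.39, adjusted p = 0.000274). CYCB1;1, the cyclin kept for repair in damaged cells, rose from 5.49, 5.29 and 4.78 to 17, 26.9 and 28.2 CPM (log2 fold change +2.21, SE 0.21, adjusted p = 0.000847). Every mutant library of these 4 genes lay above every wild-type library. The other called members were RAD17 (+2.05), a clamp loader of the checkpoint, the inhibitors SMR4 (+1.32) and KRP6 (+0.82), the kinase WEE1 (+0.75) and KRP1, an inhibitor that fell (-0.69). The regulators at the head of the response did not pass: SOG1 had +0.26, ATM -0.06 and ATR -0.25. Neither did MYB3R3 (+0.18) and MYB3R5 (+0.34), repressors of mitotic genes.

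Promoters are shown for the 5 rises of at least 4-fold with the smallest adjusted p that carry the SOG1 motif (CTT and AAG with 7 bases of any kind between them) to show where the motif lies in them. Each runs from 250 bases before to 50 after the annotated gene start (RefSeq, TAIR10.1), 5′ to 3′ on the gene's strand, and the capitals mark the fixed letters of each motif match.
AT2G18193, chr2:7919296-7919595, minus strand: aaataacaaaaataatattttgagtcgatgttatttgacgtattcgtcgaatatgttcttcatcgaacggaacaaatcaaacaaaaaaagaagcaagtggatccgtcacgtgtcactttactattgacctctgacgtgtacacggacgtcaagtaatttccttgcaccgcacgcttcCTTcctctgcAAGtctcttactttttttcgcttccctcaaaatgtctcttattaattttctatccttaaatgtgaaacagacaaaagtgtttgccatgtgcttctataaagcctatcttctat
NAC044, chr3:228825-229124, plus strand: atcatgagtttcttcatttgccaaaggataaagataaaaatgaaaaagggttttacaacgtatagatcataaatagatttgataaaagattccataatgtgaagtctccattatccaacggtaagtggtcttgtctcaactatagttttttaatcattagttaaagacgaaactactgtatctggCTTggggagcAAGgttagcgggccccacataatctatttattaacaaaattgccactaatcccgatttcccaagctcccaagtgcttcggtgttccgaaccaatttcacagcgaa
SMR7, chr3:10231518-10231817, minus strand: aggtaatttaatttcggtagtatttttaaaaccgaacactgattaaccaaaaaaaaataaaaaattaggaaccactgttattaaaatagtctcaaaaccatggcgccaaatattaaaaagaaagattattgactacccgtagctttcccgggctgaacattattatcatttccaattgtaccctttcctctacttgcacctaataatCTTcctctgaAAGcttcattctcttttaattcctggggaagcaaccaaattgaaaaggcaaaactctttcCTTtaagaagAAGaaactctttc
AT1G68200, chr1:25561388-25561687, plus strand: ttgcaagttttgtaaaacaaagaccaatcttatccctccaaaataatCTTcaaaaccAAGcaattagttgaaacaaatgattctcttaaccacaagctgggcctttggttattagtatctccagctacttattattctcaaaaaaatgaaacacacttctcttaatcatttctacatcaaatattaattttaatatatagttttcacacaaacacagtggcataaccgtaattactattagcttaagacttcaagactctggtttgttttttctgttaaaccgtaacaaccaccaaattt
NAC103, chr5:25635740-25636039, minus strand: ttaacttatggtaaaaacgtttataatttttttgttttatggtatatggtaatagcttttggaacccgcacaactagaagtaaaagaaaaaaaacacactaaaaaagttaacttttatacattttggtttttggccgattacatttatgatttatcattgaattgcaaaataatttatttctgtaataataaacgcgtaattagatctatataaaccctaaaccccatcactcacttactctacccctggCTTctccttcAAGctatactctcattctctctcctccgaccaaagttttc
Counting the annotated start as 0, the match begins at -73 in AT2G18193, -65 in NAC044, -203 in AT1G68200 and 0 in NAC103. SMR7 holds 2 matches, at -43 and 27. The motif reads the same on both strands, and it occurred in 11% of the 19885 promoters of tested genes. It occurred in 15.3% of promoters of genes called up, in 20.2% (51 of 253) for rises of at least 4-fold, and in 10.7% for falls. By list it was in 26.1% (6 of 23) for the DNA damage checkpoint and 13.6% (3 of 22) for homologous recombination. A match describes letters only and was not tested as a site. AT1G68200, a CCCH zinc finger protein, rose from 0.286, 0.295 and 0.439 to 7.97, 5.74 and 6.15 CPM (log2 fold change +4.27, SE 0.25, adjusted p = 8.03e-05). NAC103, a NAC factor of both the damage and the unfolded protein response, rose from 1.04, 1.15 and 1.48 to 9.97, 12.4 and 12.8 CPM (log2 fold change +3.26, SE 0.20, adjusted p = 8.28e-05).

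Repair genes rose in part. Of all tested genes 9.74% were called, and 28% without fas2-4 replicate 1. The share was 27.3% in the homologous recombination list and 25% in the nucleotide supply list. Of 22 tested members, 6 rose and 0 fell in the homologous recombination list (median +0.51); without fas2-4 replicate 1, 12 were up and 1 down. GMI1, named for its induction by gamma irradiation and mitomycin C, rose from 1.2, 1.77 and 1.48 to 16.4, 34.2 and 30.6 CPM (log2 fold change +4.19, SE 0.31, adjusted p = 0.000274). RPA1E, a subunit that coats single-stranded DNA, rose from 1.38, 1.69 and 2.25 to 5.84, 10.3 and 9.87 CPM (log2 fold change +2.29, SE 0.27, adjusted p = 0.00227). BRCA1, a ubiquitin ligase of repair, rose from 4.73, 5.56 and 4.97 to 12.9, 25.9 and 25.5 CPM (log2 fold change +2.08, SE 0.26, adjusted p = 0.0028). All mutant libraries were above all wild-type libraries for these 3. The cohesin subunit SYN2 (+1.43) and the translocase RAD54 (+1.23) were also called. The break sensors RAD50 (+0.22), MRE11 (-0.03) and NBS1 (+0.12) did not pass. In the end joining and PARP list, 1 of 9 members rose (11.1%, near the share of all genes). It was PARP2, which adds ADP-ribose chains at breaks, from 3.51, 3.46 and 2.5 to 19.4, 37 and 31.1 CPM (log2 fold change +3.21, SE 0.26, adjusted p = 0.000487). KU70 had +0.07, KU80 +0.16 and LIG4 +0.35, none called, and without fas2-4 replicate 1 the list had 6 up and 0 down. Of 8 genes of nucleotide supply 2 rose (3 up and 1 down without fas2-4 replicate 1). The thymidine kinase TK1A rose from 20.7, 24.4 and 23.3 to 119, 101 and 100.3 CPM (log2 fold change +2.23, SE 0.13, adjusted p = 7.8e-05), and TSO2, a small subunit of ribonucleotide reductase, rose from 144, 151 and 131 to 635, 463 and 472 CPM (log2 fold change +1.88, SE 0.16, adjusted p = 0.000503). The other subunits RNR1 (+0.60) and RNR2A (-0.15) did not pass.

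Genes of meiosis were detected in these seedlings and 5 of 15 tested members rose, none fell (median +0.89). The share called was 33.3%, against 9.74% of all genes. Without fas2-4 replicate 1, 9 were up and 0 down, against 14.2% and 13.8% of all genes. DMC1, a recombinase of meiosis, rose from 10.7, 10.8 and 10.7 to 22.7, 25.8 and 31.8 CPM (log2 fold change +1.32, SE 0.15, adjusted p = 0.00186). AHP2, which acts with DMC1 on strand invasion, rose from 0.728, 0.859 and 0.988 to 3.18, 5.46 and 5.89 CPM (log2 fold change +2.5, SE 0.28, adjusted p = 0.00186). ASY1, a protein of the meiotic chromosome axis, rose from 0.208, 0.242 and 0.165 to 0.666, 0.783 and 0.971 CPM (log2 fold change +1.96, SE 0.31, adjusted p = 0.0068). MND1, the partner of AHP2, rose from 4.29, 3.97 and 3.02 to 7.18, 8.12 and 8.3 CPM (log2 fold change +1.06, SE 0.17, adjusted p = 0.00745). PRD3, needed for meiotic breaks, was the other call (+0.80). The groups did not overlap for these genes. SPO11-1 (+0.29) and SPO11-2 (+1.19), which cut DNA in meiosis, and the crossover proteins MSH4 (+0.51) and MSH5 (-0.10) did not pass.

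The cytokinesis list split by library. Of 22 tested members, 7 rose and 0 fell (median +0.75), against 6.78% and 2.96% of all genes. Without fas2-4 replicate 1, 19 were up and 1 down, against 14.2% and 13.8% of all genes. The list's median deviation from the Col-0 mean was -0.02, +0.71 and +0.89 in replicates 1, 2 and 3 of fas2-4, and the list's median exonic length was 2450 bases. With the length correction the list had 9 up and 0 down (median +0.71), and 19 up and 1 down when replicate 1 was also left out. MKK6, a kinase of the phragmoplast cascade, rose from 6.66, 5.91 and 6.2 to 11.5, 14.9 and 15.6 CPM (log2 fold change +1.16, SE 0.16, adjusted p = 0.00358). ANP2, a kinase at the head of that cascade, rose from 2.44, 2.63 and 2.91 to 5.84, 11.9 and 10.8 CPM (log2 fold change +1.84, SE 0.26, adjusted p = 0.00472). The mitotic kinases AUR1, from 10.4, 12.7 and 11.6 to 20.1, 18 and 22 CPM (log2 fold change +0.79, SE 0.14, adjusted p = 0.00965), and AUR2, from 11.8, 11.9 and 12.8 to 19.2, 17 and 18.8 CPM (log2 fold change +0.59, SE 0.12, adjusted p = 0.0182), rose by less. The other calls were MAP65-4 (+1.06), a microtubule bundler, AUR3 (+0.74) and ANP3 (+0.76). The kinesin POK2, which guides the division plane, shows the split: it was at 4.24, 3.36 and 2.14 CPM in Col-0 and 1.85, 7.76 and 11.1 CPM in fas2-4. Its log2 fold change was +1.09, not called, and +1.51 without replicate 1. The syntaxin KN of the cell plate was at 18.6, 15.6 and 15.7 CPM in Col-0 and 16.6, 31 and 37.2 CPM in fas2-4 (log2 fold change +0.77, not called). Promoters with the core of the mitosis-specific activator element, CAACGG or TAACGG on either strand, made up 50% (11 of 22) of this list and 13.8% of all promoters. The element was also in 43.5% (10 of 23) of the DNA damage checkpoint list's promoters. It was in 13.6% for homologous recombination, 17.2% for immune receptors and 17.8% for all genes called up.

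RNA silencing genes showed the same split by library. Of 20 tested members, 5 rose and 0 fell (median +0.26), 25% against 9.74% of all genes. Without fas2-4 replicate 1, 15 were up and 0 down, against 14.2% and 13.8% of all genes. The length correction without that library gave 9 up and 0 down. Their median deviation was -0.38, +0.48 and +0.49 in the 3 mutant libraries, with a median exonic length of 3872 bases. AGO2, an Argonaute of antiviral defence, rose from 11.1, 13.1 and 10.9 to 22.3, 29.2 and 29.5 CPM (log2 fold change +1.21, SE 0.15, adjusted p = 0.00283). AGO9, an Argonaute known from ovules, rose from 0.468, 0.376 and 0.412 to 1.15, 1.69 and 1.85 CPM (log2 fold change +1.89, SE 0.28, adjusted p = 0.00501). AGO3, a copy beside AGO2, rose from 0.832, 0.913 and 1.1 to 1.95, 1.78 and 2.7 CPM (log2 fold change +1.18, SE 0.25, adjusted p = 0.0202). RDR1, an RNA-dependent RNA polymerase, rose from 5.62, 6.85 and 6.5 to 7.94, 11.6 and 12.7 CPM (log2 fold change +0.77, SE 0.19, adjusted p = 0.0413). AGO5 was the other call, at 0.104, 0.0805 and 0.11 CPM in Col-0 and 4.56, 0.617 and 0.416 CPM in fas2-4, with a log2 fold change of +4.19 and of +2.33 without replicate 1. AGO1, the main microRNA Argonaute (+0.04), AGO4 (+0.12) and DCL1 (-0.08) did not pass.

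Among core histones, the fit with all libraries called rises and no falls. In the H2A list 2 up and 0 down of 13 members were called (median +0.28), and in the H2B list 3 up and 0 down of 9 (median +0.14). These shares were 15.4% and 33.3%, against 9.74% of all genes. Without fas2-4 replicate 1 the calls were 2 up and 2 down for H2A and 3 up and 1 down for H2B, with medians of +0.09 and +0.13. The median exonic lengths were 842 and 853 bases. In fas2-4 replicates 1, 2 and 3 the median deviations were +0.38, +0.16 and +0.15 for H2A and +0.27, +0.14 and +0.16 for H2B. The length correction gave 2 up and 1 down for H2A and 3 up and 0 down for H2B. In every fit with a library left out, 0 H2A calls and 2 H2B calls were kept. AT3G53650, of the H2B list, rose from 8.74, 9.37 and 8.23 to 40.3, 41.4 and 37.8 CPM (log2 fold change +2.18, SE 0.12, adjusted p = 6.56e-05). AT3G09480, of the same list, rose from 2.31, 3.09 and 1.81 to 8.53, 5.79 and 6.73 CPM (log2 fold change +1.54, SE 0.24, adjusted p = 0.00584). HTA7, an H2A.W gene of heterochromatin, rose from 80.1, 77.9 and 80.2 to 182, 129.5 and 135 CPM (log2 fold change +0.91, SE 0.15, adjusted p = 0.00762). HTA6, also H2A.W, rose from 102, 115 and 95.8 to 159, 159 and 151 CPM (log2 fold change +0.58, SE 0.12, adjusted p = 0.0166). AT2G28720 was the third H2B call (+0.87). The replication-linked HTA1 (+0.40), HTA2 (+0.36) and HTB9 (-0.03) did not pass. AT1G13370, annotated as a histone superfamily protein, rose from 0.832, 0.993 and 0.796 to 17.6, 12.7 and 12.4 CPM (log2 fold change +4.02, SE 0.21, adjusted p = 5.94e-05). Histone genes are near-identical copies in part, so reads may be split among them.

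Some rises were grouped on the chromosomes. A running median of the log2 fold change over 7 neighbouring tested genes was at least 0.6 in 306 of 19856 windows (1.54%) and at or below -0.6 in 4. Joined windows gave 8 blocks of at least 7 tested genes, all with raised medians, and no block of falls. This rule was set after the values were seen, so the blocks are a description with no test. They held 115 tested genes, 88 of them called up, where 6.78% of all tested genes were and where the rule used the same values. These 88 are 6.49% of all genes called up. DNA was not measured in these samples, and the counts of RNA do not show what the blocks are.

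The block with most genes lay on chromosome 4 at chr4:12527675-12647985 (TAIR10.1, 120.3 kb, AT4G24130 to AT4G24470). Of its 34 tested genes, 34 had a positive log2 fold change, 28 were called up and none down. Groups did not overlap for 31, where 31.7% of all genes have groups that do not overlap. The block was chosen on these same values, which favours such counts. The median was +1.09, with quartiles of +0.88 and +1.39, and +1.07 without fas2-4 replicate 1. Each mutant library showed it, with median deviations of +0.80, +0.95 and +0.94 from the Col-0 mean. The 10 tested genes on either side had medians of -0.10 and -0.08. The nearest tested gene on each side was itself called up, with +0.78 before the block and +1.07 after it. The ends of the block are thus those of the window rule, which also makes low medians beside a block likely. Genes of unlike function took part. SHD, the endoplasmic reticulum chaperone of the HSP90 family, was at 171, 167 and 116 CPM in Col-0 and 352, 582 and 587 CPM in fas2-4 (+1.74). SLY1, an F-box protein of gibberellin signalling, was at 14.9, 13.7 and 14.9 CPM in Col-0 and 53.3, 32.8 and 29.6 CPM in fas2-4 (+1.41). VEP1, a protein of vein patterning, was at 63.3, 68.2 and 70.04 CPM in Col-0 and 178, 161 and 160 CPM in fas2-4 (+1.31), and AFB4, an auxin receptor, at 6.06, 7.11 and 7.52 CPM in Col-0 and 12, 17 and 16.8 CPM in fas2-4 (+1.14). The growth-regulating factor GRF8 was called as well (+2.3).

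The second block lay on chromosome 1 at chr1:20478030-20636892 (159 kb, AT1G54930 to AT1G55320), with 24 of 29 tested genes called up and a median of +1.09. The third lay further along the same chromosome at chr1:21185592-21266469 (80.9 kb, AT1G56550 to AT1G56720), with 12 of 15 called up and a median of +1.15. Their deviations per mutant library were +0.78, +1.04 and +1.03 in the second block and +0.84, +0.95 and +0.92 in the third. The medians of the 10 genes beside the second block were +0.03 and -0.13, and those beside the third +0.24 and +0.11. The second block held the cytokinesis kinase ANP2 described above, AXR4, which places an auxin influx carrier, at 45.2, 44.8 and 51.2 CPM in Col-0 and 122, 98.8 and 93.4 CPM in fas2-4 (+1.15), and the lipoxygenase LOX1 at 13.9, 13.9 and 13 CPM in Col-0 and 21.4, 50.6 and 44.2 CPM in fas2-4 (+1.51). The mediator subunit MED9 was at 4.81, 5.05 and 4.86 CPM in Col-0 and 11.4, 12.7 and 12.8 CPM in fas2-4 (+1.33) and the splicing factor SCL33 at 23.9, 23.1 and 24.4 CPM in Col-0 and 42.6, 49.6 and 48.2 CPM in fas2-4 (+0.98). PDF1.5, a defensin gene inside it, was an exception with -0.29, not called. The third block held PAP1, the activator of anthocyanin synthesis, at 7.59, 9.34 and 5.93 CPM in Col-0 and 20.4, 27.6 and 15.1 CPM in fas2-4 (+1.46), and GolS2, a galactinol synthase of water-deficit response, at 1.01, 1.02 and 1.04 CPM in Col-0 and 8.23, 8.73 and 5.78 CPM in fas2-4 (+2.88). It also held ZIP4, annotated as a clathrin adaptor family protein (+1.13). Calls of genes in these blocks therefore came with those of their neighbours, PAP1, ANP2 and SLY1 included.

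The other 5 blocks held 7 to 9 tested genes each. They lay on chromosome 4 at chr4:673862-701769 and chr4:732313-770835, on chromosome 1 at chr1:12917070-12962853 and chr1:13669425-13836954, and on chromosome 5 at chr5:7478860-7496990, with medians of +0.82, +1.09, +0.97, +1.09 and +1.83. Between them 4, 6, 4, 6 and 4 genes were called up in the same order. Levels were low in the chromosome 5 block, with a median of 0.50 CPM over its genes. Its median deviations were +0.60, +0.34 and +0.63 in fas2-4 replicates 1, 2 and 3, on the log2(CPM + 1) scale. The block at chr1:12917070-12962853 had a median level of 1.77 CPM. The 5 tested genes between the chromosome 4 blocks of this group had log2 fold changes of +0.16 to +0.60. WRKY47 (+1.08) and a chitinase gene, AT4G01700 (+1.36), lay in one of the chromosome 4 blocks. WRKY38, a WRKY factor of the salicylic acid response (+2.14), closed the block on chromosome 5. The block at chr1:13669425-13836954 held SHM7, a serine hydroxymethyltransferase, which rose from 28.6, 28.9 and 31.5 to 48.5, 57.1 and 94.8 CPM (log2 fold change +1.17, SE 0.23, adjusted p = 0.0161).

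**Figure D4:**
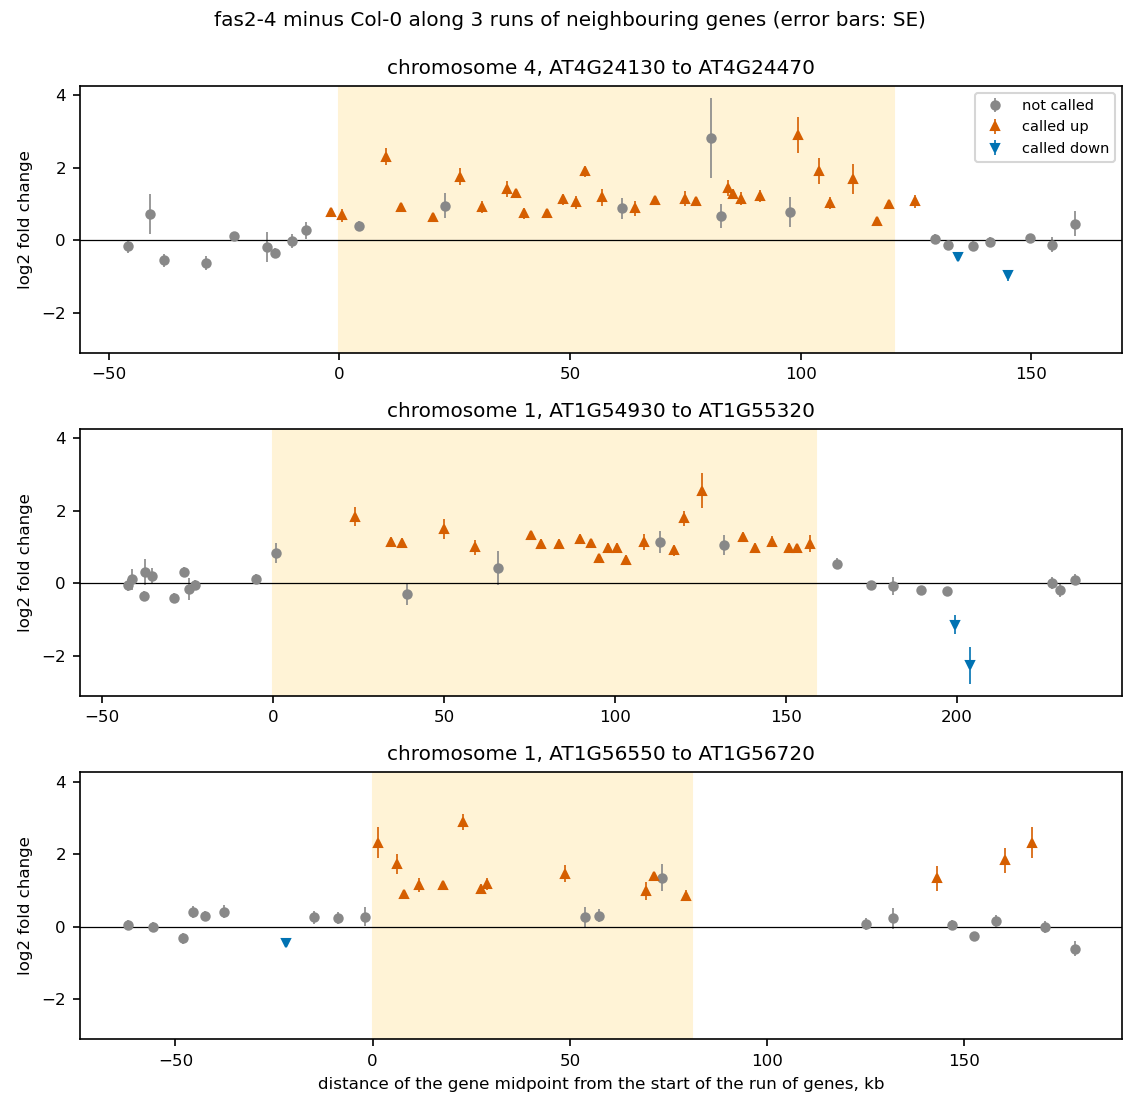
Log2 fold change (fas2-4 minus Col-0) of tested genes in and around the 3 blocks with most genes, against distance from the block's start in kb, 1 point per gene with its SE, triangles marking called genes. The medians inside are +1.09, +1.09 and +1.15, and those of the 10 flanking genes on each side run from -0.13 to +0.24.

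Genes that make and handle salicylic acid and N-hydroxypipecolic acid, signals of systemic immunity, rose in part. Of 15 tested members, 9 rose and 1 fell (median +1.29), 66.7% against 9.74% of all genes. Without fas2-4 replicate 1, 8 were up and 1 down, against 14.2% and 13.8% of all genes. PBS3, which conjugates isochorismate on the way to salicylic acid, rose from 9.49, 7.41 and 8.7 to 32.2, 17.2 and 29.7 CPM (log2 fold change +1.63, SE 0.23, adjusted p = 0.0048). CBP60g, a calmodulin-binding activator of the pathway, rose from 15.1, 16.2 and 21.5 to 55.2, 32.2 and 48.7 CPM (log2 fold change +1.36, SE 0.22, adjusted p = 0.00684). SARD1, its close partner, rose from 14.6, 15.9 and 20.1 to 47.7, 33.8 and 55.2 CPM (log2 fold change +1.43, SE 0.20, adjusted p = 0.00433). ICS1, isochorismate synthase, rose from 19.6, 18 and 17.8 to 50.03, 36.2 and 46.1 CPM (log2 fold change +1.25, SE 0.14, adjusted p = 0.00203). FMO1 (+2.09) and ALD1 (+1.48), of N-hydroxypipecolic acid synthesis, rose. The salicylic acid exporter EDS5 (+1.22) and the hydroxylases DLO1 (+1.75) and DMR6 (+0.89), which break salicylic acid down, also rose. UGT74F1, a glucosyltransferase of salicylic acid, fell (-1.26).

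Receptors of the immune response rose in part. Of 29 tested members, 9 rose and 0 fell (median +0.36), 31% against 9.74% of all genes. Without fas2-4 replicate 1, 10 were up and 3 down, against 14.2% and 13.8% of all genes. CRK45, a cysteine-rich receptor kinase, rose from 6.27, 5.24 and 5.49 to 20.4, 14.1 and 26.4 CPM (log2 fold change +1.84, SE 0.22, adjusted p = 0.00255). CRK36, of the same family, rose from 3.82, 4.7 and 4.31 to 13, 9.45 and 15.8 CPM (log2 fold change +1.57, SE 0.20, adjusted p = 0.00317). CRK6 rose from 8.89, 9.02 and 12.1 to 27.7, 22.2 and 35.4 CPM (log2 fold change +1.51, SE 0.20, adjusted p = 0.00353). CRK13 rose from 3.09, 2.98 and 3.49 to 9.58, 6.48 and 7.97 CPM (log2 fold change +1.33, SE 0.18, adjusted p = 0.0041). The family members CRK7 (+1.81) and CRK14 (+1.03), the early response genes FRK1 (+1.4) and NHL10 (+2.04), and the co-receptor SOBIR1 (+0.77) completed the calls. CRK36, CRK37, CRK38 and CRK39 lie close together on chromosome 4 and were all called up, CRK37 from 1.14, 0.671 and 1.29 to 5.02, 4.01 and 7.3 CPM (+2.39). The pattern receptors proper did not pass: FLS2, for flagellin, had -0.55, EFR +0.36 and CERK1, for chitin, -0.17. Neither did the oxidase RBOHD (-0.13). The W-box, TTGACC or TTGACT on either strand, occurred in 69% (20 of 29) of this list's promoters and in 32.4% of all. Among all genes called up its share was 37.8%, and among those called down 28.7%.

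In the list of camalexin and indole glucosinolates, 4 up and 0 down of 19 tested members were called (median +0.22), and the 4 calls were genes of camalexin synthesis or of glutathione transfer. PAD3, the last enzyme of camalexin synthesis, rose from 10.3, 10.9 and 5.27 to 58.5, 25.6 and 45.6 CPM (log2 fold change +2.29, SE 0.35, adjusted p = 0.00565). CYP71A13, an earlier step, rose from 7.13, 4.32 and 2.14 to 21.1, 12.6 and 21.1 CPM (log2 fold change +2.01, SE 0.39, adjusted p = 0.0148). GSTF6 rose from 84, 78.4 and 56.5 to 331, 198 and 278 CPM (log2 fold change +1.88, SE 0.22, adjusted p = 0.00213), and GSTU4 rose from 2.86, 4.35 and 2.09 to 15.3, 7.17 and 8.81 CPM (log2 fold change +1.75, SE 0.34, adjusted p = 0.0154). Both are glutathione S-transferases. Without fas2-4 replicate 1 the counts were 3 up and 2 down. CYP83B1 (+0.01), MYB34 (-0.38) and MYB51 (+0.21) of the indole glucosinolate branch did not pass. Of the aliphatic branch 1 up and 0 down of 20 were called: the S-oxygenase FMOGS-OX2 rose from 4.68, 4.99 and 2.85 to 10.1, 16.4 and 9.8 CPM (log2 fold change +1.54, SE 0.27, adjusted p = 0.0104). The shares called were 21.1% in the list of camalexin and indole glucosinolates and 5% in the aliphatic branch, against 9.74% of all genes. That branch had, with fas2-4 replicate 1 left out, 7 up and 0 down, against 14.2% and 13.8% of all genes.

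Oxidative and mitochondrial stress genes moved both ways. Of 27 tested members, 11 rose and 3 fell (median +0.26), 51.9% against 9.74% of all genes. Without fas2-4 replicate 1, 11 were up and 5 down, against 14.2% and 13.8% of all genes. AOX1C, an alternative oxidase that bypasses part of the respiratory chain, rose from 0.962, 0.886 and 0.686 to 6.84, 6.81 and 6.63 CPM (log2 fold change +2.99, SE 0.19, adjusted p = 0.000105). NDB4, an alternative NAD(P)H dehydrogenase, was called up at 0.026, 0.0268 and 0.0274 CPM in Col-0 and 0.461, 0.807 and 1.04 CPM in fas2-4 (adjusted p = 0.00207). It had 3 reads over the Col-0 libraries and 97 over the mutant libraries, a ratio of 29.1 with an exact 95% counting interval of 9.68 to 144. OM66, an outer membrane protein of mitochondria under stress, rose from 12.1, 10.9 and 11.8 to 27.4, 22.3 and 26.6 CPM (log2 fold change +1.13, SE 0.13, adjusted p = 0.00205). CAT3, a catalase, rose from 420.4, 483 and 537 to 1017, 1065 and 949.6 CPM (log2 fold change +1.07, SE 0.13, adjusted p = 0.00269). AOX1A (+0.88), AOX1D (+2.16), NDB2 (+0.80) and NDA2 (+1.11) of the same bypass rose as well, as did NAC053 (+1.14), AT2G21640 (+1.5) and the zinc finger factor ZAT12 (+1.15). The 3 falls were the light-regulated NDA1 (-0.73), the leaf catalase CAT2, from 2081, 2103 and 2228 to 1345, 1455 and 1286 CPM (log2 fold change -0.65, SE 0.12, adjusted p = 0.0117), and the chloroplast superoxide dismutase CSD2, from 929, 1346 and 1362 to 623, 622 and 642 CPM (log2 fold change -0.95, SE 0.16, adjusted p = 0.00958). CAT3 and CAT2 thus moved in opposite directions. AOX1C is the annotated neighbour of SMR7 on chromosome 3.

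In the list of the unfolded protein response of the endoplasmic reticulum, called chaperones and folding enzymes rose by less than 2-fold and the factor NAC103 by more. SHD, described above, is not in the list and rose by more as well (+1.74). Of 21 tested members, 8 rose and 0 fell (median +0.47), 38.1% against 9.74% of all genes. Without fas2-4 replicate 1, 15 were up and 0 down, against 14.2% and 13.8% of all genes. PDIL1-1, a protein disulfide isomerase, rose from 47.6, 44.5 and 41.6 to 73.5, 77.2 and 80.00 CPM (log2 fold change +0.79, SE 0.11, adjusted p = 0.00433). CRT3, a calreticulin that folds immune receptors, rose from 63.4, 67.7 and 68.4 to 134, 98 and 139 CPM (log2 fold change +0.89, SE 0.15, adjusted p = 0.00826). PDIL1-2 rose from 34.4, 27 and 27.7 to 51.7, 47.1 and 52.3 CPM (log2 fold change +0.76, SE 0.13, adjusted p = 0.00939). ERDJ3B (+0.67), CRT1b (+0.47), CNX1 (+0.45) and SDF2 (+0.47) were the other calls. The chaperones BIP1 (+0.51), BIP2 (+0.47) and BIP3 (+1.34) and the sensor factor BZIP60 (+0.35) did not pass.

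Hormone lists differed in their share of calls. Of all tested genes 6.78% were called up and 2.96% down. Without fas2-4 replicate 1 these shares were 14.2% and 13.8%. In the cytokinin list 5 up and 3 down of 26 were called (30.8%, against 9.74% of all genes). Of these calls 0 were kept in every fit with a library left out. LOG5, which releases active cytokinin, rose from 0.52, 0.644 and 0.604 to 1.38, 1.69 and 1.36 CPM (log2 fold change +1.32, SE 0.23, adjusted p = 0.0104). LOG3 rose from 0.312, 0.268 and 0.22 to 0.846, 1.09 and 0.624 CPM (log2 fold change +1.66, SE 0.33, adjusted p = 0.0157), while LOG1, of the same family, fell from 47.7, 48.8 and 51.5 to 33.5, 26.1 and 27 CPM (log2 fold change -0.77, SE 0.13, adjusted p = 0.0085). ARR15, a response regulator induced by cytokinin, fell from 12.6, 10.7 and 12.9 to 8.38, 5.65 and 6.66 CPM (log2 fold change -0.81, SE 0.17, adjusted p = 0.0226). IPT7 (+1.26) and IPT5 (+1.17), which start cytokinin synthesis, and CKX1 (+1.21), which degrades it, rose, and ARR6 fell (-0.84). The counts without fas2-4 replicate 1 were 5 up and 11 down of 26.

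The shares called for auxin (11.1%), gibberellin (8.33%) and abscisic acid (11.5%) were near the 9.74% of all genes. For auxin 3 up and 1 down of 36 were called. IAA5, an early auxin-response gene, rose from 1.07, 1.26 and 1.15 to 4.23, 3.32 and 3.17 CPM (log2 fold change +1.62, SE 0.20, adjusted p = 0.00276). TAA1, the first step of auxin synthesis, rose from 4.81, 5.13 and 4.17 to 9.79, 14.2 and 9.55 CPM (log2 fold change +1.25, SE 0.19, adjusted p = 0.00589), and its relative TAR2 fell from 17.2, 16.9 and 18.5 to 9.64, 11.8 and 12.9 CPM (log2 fold change -0.62, SE 0.14, adjusted p = 0.0296). IAA14 was the other rise (+0.81). The influx carrier AUX1 (-0.12) did not pass. For gibberellin 2 up and 0 down of 24 were called, the response gene GASA4, from 119, 111 and 128 to 244, 198 and 190 CPM (log2 fold change +0.82, SE 0.13, adjusted p = 0.00773), and the receptor GID1B (+0.54). For abscisic acid 1 up and 2 down of 26 were called. PYL2, a receptor, fell from 3.2, 4.19 and 4.14 to 1.46, 1.64 and 1.69 CPM (log2 fold change -1.27, SE 0.19, adjusted p = 0.00555). PYL4, another receptor, fell (-0.94), and the phosphatase PP2CA that receptors restrain rose (+0.62). Without fas2-4 replicate 1 the counts were 3 up and 8 down for auxin, 3 up and 4 down for gibberellin and 5 up and 7 down for abscisic acid. In that fit 14.2% of all genes were up and 13.8% down.

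Photosynthesis genes were lower by small amounts and few passed. Of all tested genes 9.74% were called and 2.96% were called down. Without fas2-4 replicate 1, 13.8% of all genes were called down. All 12 green leaf markers had negative log2 fold changes (median -0.42), and 2 fell (0 up and 6 down without fas2-4 replicate 1). RBCS1A, a small subunit of Rubisco, fell from 31084, 30397 and 33399 to 24462, 19134 and 19905 CPM (log2 fold change -0.58, SE 0.14, adjusted p = 0.0344). RBCS3B, a close copy, fell from 19575, 22059 and 23866 to 15673, 13932 and 13185 CPM (log2 fold change -0.61, SE 0.14, adjusted p = 0.0254). In the Calvin cycle list 0 up and 2 down of 14 were called and 1 of 14 had a positive value (median -0.38). PRK, which regenerates the acceptor of CO2, fell from 1666, 1727 and 1748 to 1209, 1274 and 1202 CPM (log2 fold change -0.48, SE 0.11, adjusted p = 0.0307), and RPE, an epimerase, fell from 1072, 1126 and 1061 to 777, 819 and 728 CPM (log2 fold change -0.49, SE 0.11, adjusted p = 0.0316). In chlorophyll synthesis 0 up and 2 down of 22 were called (median -0.30), CHLG, the last step, from 373, 398 and 432 to 286, 300.5 and 283 CPM (-0.47), and the regulator FLU, from 181, 185 and 185 to 144, 134 and 133 CPM (-0.42). Without fas2-4 replicate 1, 10 of 14 Calvin cycle genes and 10 of 22 chlorophyll genes were called down. Of the 118 tested organellar identifiers, 3 fell (2.54%, near the 2.96% of all genes), with a median of -0.44. Without fas2-4 replicate 1, 24 of them were called down.

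Falls of abundant transcripts reached beyond photosynthesis. Of the 10 called genes with the highest deposited TMM-scaled TPM, all 10 fell. Besides RBCS1A, RBCS3B, PRK, RPE, CAT2 and CSD2 these were CAB2, a light-harvesting protein (-0.67), the chloroplast ribosomal protein RPS1 (-0.46), AT2G10940 and GLN2. AT2G10940, a lipid transfer family protein, fell from 2127, 1956 and 1881 to 1067, 888 and 957 CPM (log2 fold change -1.03, SE 0.13, adjusted p = 0.00261). GLN2, the chloroplast glutamine synthetase, fell from 3057, 2992 and 2684 to 2284, 2002 and 1839 CPM (log2 fold change -0.51, SE 0.13, adjusted p = 0.045). Its cytosolic counterparts moved the other way. GLN1;1 rose from 41.9, 53.9 and 56.7 to 122, 87.2 and 112 CPM (log2 fold change +1.07, SE 0.17, adjusted p = 0.00636) and GLN1;3 rose from 32.7, 38.7 and 39.5 to 67.5, 81.4 and 67.9 CPM (log2 fold change +0.97, SE 0.13, adjusted p = 0.0039). The other call of the nitrogen list was NRT2.7, a nitrate transporter known from seeds, from 27.5, 24.3 and 29.8 to 21, 17.6 and 17.9 CPM (-0.53). That list counted 2 up and 2 down of 25 (16%, against 9.74% of all genes). Without fas2-4 replicate 1 it counted 4 up and 6 down, against 14.2% and 13.8% of all genes.

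Several of the 15 largest falls among genes reaching 5 CPM had no assigned role. AT2G01422, a non-coding RNA, fell from 41.3, 60.9 and 51.2 to 2.79, 1.71 and 2.57 CPM (log2 fold change -4.44, SE 0.23, adjusted p = 5.94e-05). AT2G05995, also non-coding, fell from 6.63, 5.66 and 4.86 to 0.461, 0.451 and 0.116 CPM (log2 fold change -4.06, SE 0.38, adjusted p = 0.000847). AT4G19430, uncharacterized, fell from 11.9, 12.2 and 10.9 to 2.92, 0.831 and 0.971 CPM (log2 fold change -2.9, SE 0.41, adjusted p = 0.00459). For these the mutant libraries lay far below all wild-type libraries. Another 3 called genes lie close together on chromosome 5, the third of them at a low level. AT5G35480, uncharacterized, fell from 23.3, 32.1 and 23.5 to 5.64, 3.25 and 3.95 CPM (log2 fold change -2.62, SE 0.23, adjusted p = 0.000637). MRU1, named for its response in a methionine overaccumulation mutant, fell from 29.1, 36.4 and 29.5 to 6.07, 5.79 and 6.01 CPM (log2 fold change -2.41, SE 0.14, adjusted p = 7.4e-05). AT5G35510, annotated as a TIR-NBS-LRR resistance protein, fell from 0.546, 0.591 and 0.439 to 0.0769, 0.0475 and 0.0925 CPM (log2 fold change -2.81, SE 0.39, adjusted p = 0.00396). ESM1, which steers glucosinolate breakdown, fell from 1050.1, 1283 and 1052 to 357, 356 and 333 CPM (log2 fold change -1.69, SE 0.13, adjusted p = 0.000363). TRY, an inhibitor of trichome formation, fell from 24.5, 22.6 and 22.5 to 8.56, 6.48 and 6.5 CPM (log2 fold change -1.69, SE 0.15, adjusted p = 0.000662). AT4G27570, a UDP-glycosyltransferase, fell from 6.74, 6.04 and 6.92 to 1.69, 1.71 and 1.92 CPM (log2 fold change -1.89, SE 0.16, adjusted p = 0.000553). AT3G55646 and AT1G47370 were those of the 15 largest falls that lost their call in some fits with a library left out.

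Flower genes were detected at low levels. Of 11 markers of flowers and pollen 6 passed the filter, and the list summed to 3.51 to 4.73 CPM in Col-0 and 10.3 to 18.7 CPM in fas2-4. SEP3, a MADS factor of all floral organs, rose from 0.572, 0.483 and 0.521 to 8.28, 3.7 and 5.34 CPM (log2 fold change +3.45, SE 0.33, adjusted p = 0.000945). SEP2 rose from 0.052, 0.134 and 0 to 2.43, 0.997 and 1.16 CPM (log2 fold change +4.54, SE 0.67, adjusted p = 0.00514). AP3, of petals and stamens, rose from 0.26, 0.0268 and 0.0549 to 2.2, 1.21 and 0.878 CPM (log2 fold change +3.59, SE 0.63, adjusted p = 0.0101), and its partner PI rose from 0.39, 0.161 and 0.0823 to 2.26, 1.31 and 1.09 CPM (log2 fold change +2.84, SE 0.50, adjusted p = 0.0102). These genes are also markers of floral tissue, whose share in the samples was not measured. AG was at 1.85, 1.61 and 1.15 CPM in Col-0 and 1.03, 0.783 and 1.18 CPM in fas2-4 (-0.63, not called), and the anther gene MS1 had no reads. The list had 4 up and 0 down without fas2-4 replicate 1. SEP2, AP3 and PI had at most 0.39 CPM in any Col-0 library and passed the filter through their fas2-4 levels. The count of called members is therefore no test of this list.

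Of 17 tested genes of organ boundaries and meristems, 3 rose and 0 fell (median +0.29), 17.6% against 9.74% of all genes. Without fas2-4 replicate 1, 8 were up and 1 down, against 14.2% and 13.8% of all genes. CUC1, which sets organ boundaries, rose from 0.364, 0.591 and 0.769 to 1.26, 1.47 and 1.94 CPM (log2 fold change +1.44, SE 0.32, adjusted p = 0.0244). LOB, expressed at the base of organs, rose from 4.32, 4.86 and 4.89 to 10.02, 6.79 and 7.91 CPM (log2 fold change +0.81, SE 0.18, adjusted p = 0.0238). LOF1, a MYB factor of the boundary, rose from 0.832, 0.537 and 0.604 to 1.54, 1.42 and 1.18 CPM (log2 fold change +1.06, SE 0.26, adjusted p = 0.0355). CUC2 (+0.64), CLV1 (-0.46), AS1 (+0.28) and ANT (+0.29) did not pass. No SPL factor of phase change passed among 15 tested in edgeR's test (3 at an unadjusted p under 0.05, 1 up and 0 down by DESeq2). The SPL list without fas2-4 replicate 1 had 2 up and 0 down, and 2 up and 3 down with the length correction as well. SPL9 had +0.53 and SPL14 +0.02.

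The remaining lists are read against the 9.74% of all genes called. Cuticle and suberin genes gave 0 up and 3 down of 30: KCS5, which elongates wax precursors, fell from 46.3, 41.2 and 45.2 to 28.7, 23.2 and 21.8 CPM (log2 fold change -0.85, SE 0.14, adjusted p = 0.00682), with CER2 (-0.47) and CYP86A4 (-0.57) beside it. Expansins and xyloglucan enzymes gave 1 up and 1 down of 33: XTH17 fell from 11.2, 6.01 and 5.68 to 3.49, 2.33 and 2.94 CPM (log2 fold change -1.39, SE 0.29, adjusted p = 0.02) and XTH28 rose (+0.50). Phenylpropanoid and lignin genes gave 0 up and 1 down of 23, the dehydrogenase CAD7 (-0.50). Sulfate genes gave 1 up and 1 down of 18: SHM7 above, and the transporter SULTR3;5, which fell from 7.28, 5.42 and 6.34 to 2.74, 2.63 and 3.31 CPM (log2 fold change -1.13, SE 0.18, adjusted p = 0.0066). Sugar starvation genes gave 3 up and 0 down of 22: GPT2, a plastid glucose phosphate carrier, rose from 3.98, 5.34 and 5.3 to 10.7, 10.2 and 13 CPM (log2 fold change +1.21, SE 0.17, adjusted p = 0.00459), and TPS11 (+0.95) and APL3 (+0.66) rose too. The counts of these 5 lists without fas2-4 replicate 1 were, in the same order, 5 up and 7 down, 6 up and 10 down, 0 up and 2 down, 3 up and 2 down, and 6 up and 4 down. For cellulose synthesis, early flavonoids, vascular and guard cell markers, edgeR called 0 of 12, 9, 10 and 5. At an unadjusted p under 0.05 there were 3, 4, 1 and 4, and DESeq2 called 2, 2, 0 and 2. Leaving out fas2-4 replicate 1 gave 1 up and 3 down, 2 up and 2 down, 1 up and 1 down, and 0 up and 3 down, in the same order, and the length correction without it gave 1 up and 8 down for cellulose synthesis. Chalcone synthase TT4, the entry to flavonoids, was at 577, 712 and 643 CPM in Col-0 and 679.9, 743 and 602 CPM in fas2-4 (+0.07).

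**Figure D5:**
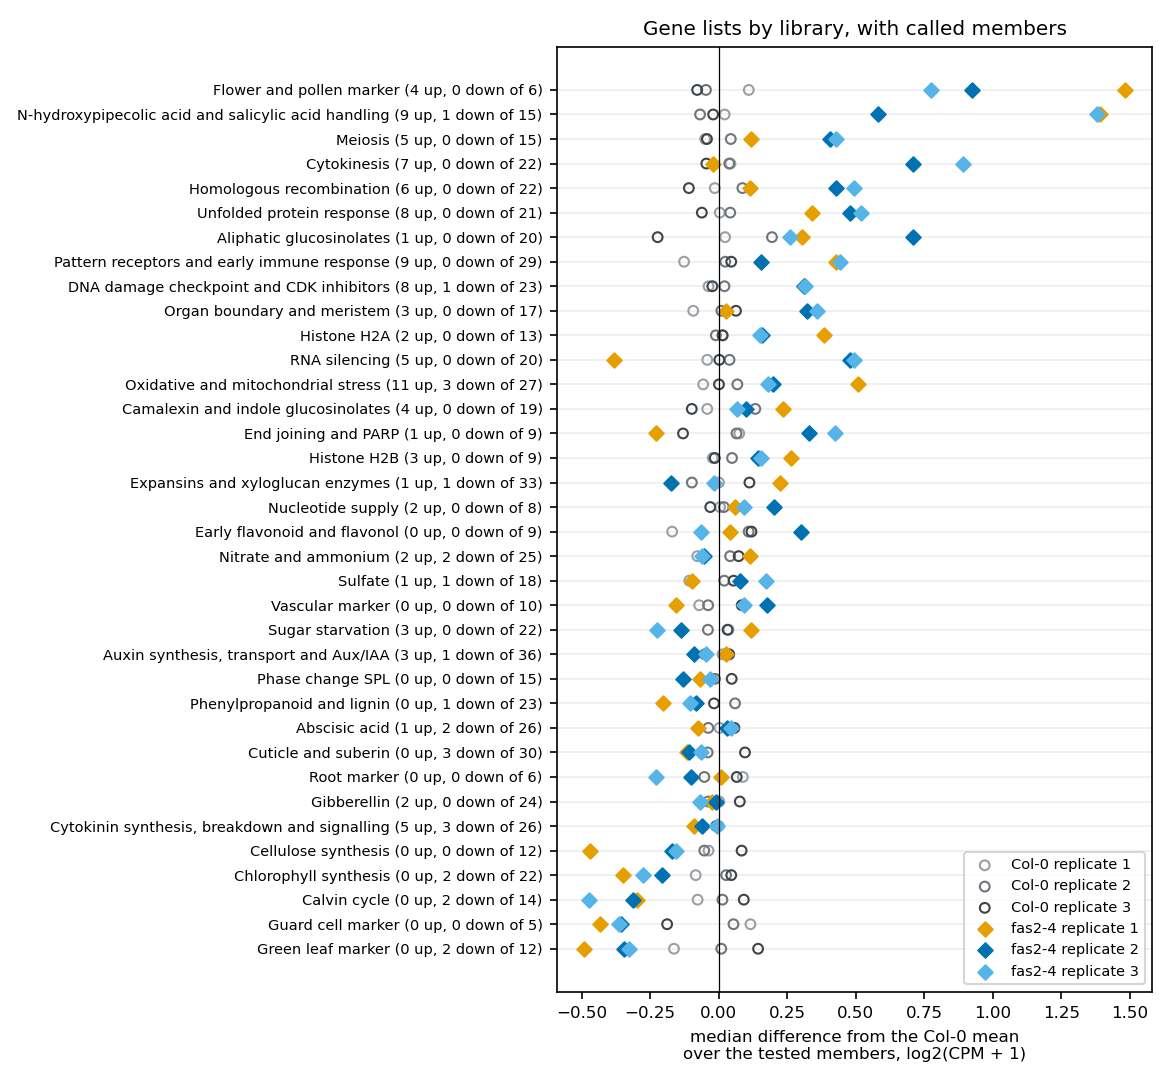
Median log2 deviation from the Col-0 mean of the tested members of each gene list (one line each) in each library (points). In the cytokinesis list fas2-4 replicates 1, 2 and 3 stand at -0.02, +0.71 and +0.89, and in the list of salicylic acid handling at +1.39, +0.58 and +1.38.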

How the data were processed

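Read counts per gene were deposited by the authors for 6 libraries of each of 2 labelled groups. Per the submitters' processing notes, fastp 0.23.4, HISAT2 2.2.1 and TAIR10 were used. No counting program, annotation version or strand setting is given in the sources used here. Deposited TMM-scaled TPM values, a score per gene, served only to rank abundant genes. The labelled group that holds the other 6 libraries was not used here. Members and lists (37 lists of 745 genes, 734 matched) were chosen with earlier results of these data known. Counts were filtered (filterByExpr), scaled by TMM and put through edgeR 4.0.16 (R 4.3.3; robust glmQLFit, then a 2-sided glmQLFTest); adjusted p is Benjamini-Hochberg over 20004 genes. SE is the log2 fold change over the square root of F. Names, positions and promoters come from RefSeq TAIR10.1; 285 organellar identifiers did not match, and 10082 genes (31%) overlap another. Named were the CAF-1 subunits, the 15 largest rises and falls (at least 5 CPM, no overlap of libraries), up to 4 called genes per list and 3 per family by adjusted p, the 10 genes most apart in fas2-4 replicate 1, the 10 most abundant calls and 5 rises with the SOG1 motif; members listed beside them were chosen after their values were seen. Blocks joined windows of 7 tested genes across gaps of at most 3. The alternatives were RLE scaling, no filter, DESeq2 1.42.0, a replicate block, a length correction (lowess span 0.3), a 2-fold minimum and leaving out each library; the length correction without fas2-4 replicate 1 was added after seeing the data. On simulated data for 19629 genes, 93 of 99 genes changed by 1 log2 unit and 101 of 101 changed by 2 were recovered, with 6 false calls. The simulation gave all genes the same spread, changed only genes above a minimum level, and held no deviating library and no trend with length. It thus does not measure the recovery in the real libraries. The floor of 3 counts covers counting error only. Some genes are not reported here.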

Additional observations from a re-analysis of the deposited data

How the results depend on the processing

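The direction of the totals held under every setting run, with more rises than falls, but their size did not. DESeq2 gave 2923 calls with 1206 falls, and the length correction 3333 with 1407 falls. Requiring a 2-fold change left 993 calls, 831 up and 162 down. The length correction without fas2-4 replicate 1 gave 5237 calls, 2636 up and 2601 down. Leaving out 1 library at a time gave 643 to 5661 calls, 510 to 2877 up and 133 to 2784 down. The highest of each was without fas2-4 replicate 1 and the lowest without Col-0 replicate 3. RLE scaling gave 1932 calls and no filter 1996. Of 210 named genes 184 were called, and 107 of these in every fit with a library left out; no named gene that was called reversed. The cause of these shifts was not tested.

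Whether the replicate numbers pair the samples could not be settled with 3 libraries per group. Same-numbered deviations from the group means correlated at -0.06, 0.27 and -0.03, and differently numbered ones at -0.30 to 0.20. With the replicate number as a block, 1465 genes were called. At 39258873 counts or more per library, depth limits genes with few reads.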

Other observations

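Gene families named by annotation added groups that the lists above do not hold. Histone genes as a family counted 20 up and 0 down of 47 (42.6% called, against 9.74% of all genes). Of these calls 7 were kept in every fit with a library left out, and the family's median exonic length was 859 bases. WRKY factors counted 15 up and 0 down of 55: WRKY25 rose from 8.24, 7.95 and 9.47 to 22.2, 18.9 and 21.2 CPM (log2 fold change +1.28, SE 0.13, adjusted p = 0.00136), WRKY50 rose from 2.31, 2.39 and 2.63 to 9.92, 6.22 and 9.89 CPM (log2 fold change +1.83, SE 0.21, adjusted p = 0.00211) and WRKY60 rose from 4.76, 7.14 and 5.41 to 19.1, 14.5 and 19.1 CPM (log2 fold change +1.61, SE 0.19, adjusted p = 0.00227). NAC factors counted 13 up and 1 down of 57 and glutathione S-transferases 11 up and 1 down of 44, with GSTF7 at 51.1, 55.9 and 42.1 CPM in Col-0 and 223, 114 and 185 CPM in fas2-4 (+1.81). MADS-box factors split evenly, 10 up and 10 down of 38: FLC, the repressor of flowering, fell from 1.95, 1.77 and 1.43 to 0.205, 0.0949 and 0.277 CPM (log2 fold change -3.13, SE 0.35, adjusted p = 0.00186), and AGL19, a promoter of flowering, rose from 0.442, 0.537 and 0.412 to 2.08, 2.06 and 1.48 CPM (log2 fold change +2.01, SE 0.26, adjusted p = 0.00293). F-box genes counted 22 up and 1 down of 181, with AT5G07610 moving from 4.06, 4.24 and 4.2 to 16.7, 12.9 and 15.8 CPM (+1.86). Cytochromes P450 counted 22 up and 8 down of 130: CYP96A11 rose from 0.104, 0.107 and 0.192 to 1.72, 1.88 and 1.55 CPM (log2 fold change +3.65, SE 0.31, adjusted p = 0.000553). Proteasome genes counted 5 up and 0 down of 42, and 16 up and 0 down without fas2-4 replicate 1. The subunit PAD2 rose from 36.1, 41.7 and 50.3 to 76.7, 86.4 and 90.9 CPM (log2 fold change +0.99, SE 0.15, adjusted p = 0.00532), and RPT5B had +0.51. With fas2-4 replicate 1 left out, the counts were 21 up and 4 down for histones, 19 up and 2 down for WRKY, 16 up and 2 down for NAC and 10 up and 10 down for MADS-box factors. They were 12 up and 4 down for glutathione S-transferases, 29 up and 8 down for F-box genes and 27 up and 17 down for cytochromes P450.

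Other families are given with the same background of 9.74%. Pentatricopeptide repeat genes counted 1 up and 1 down of 257, helicases 4 up and 0 down of 112 and NBS-LRR resistance genes 7 up and 2 down of 122. Without fas2-4 replicate 1 these were 7 up and 11 down, 32 up and 4 down and 33 up and 4 down, and with the length correction as well 4 up and 20 down, 18 up and 8 down and 18 up and 11 down. Ribosomal protein genes counted 10 up and 6 down of 354, and 11 up and 100 down without that library. With the length correction they counted 11 up and 30 down, and 14 up and 52 down without that library. Their median deviation was +0.19, -0.12 and -0.19 in fas2-4 replicates 1, 2 and 3, at a median exonic length of 1012 bases. AT5G39850, a ribosomal protein S4 gene, was among the rises and rose from 9.21, 7.81 and 7.55 to 23.4, 20.3 and 21.1 CPM (log2 fold change +1.4, SE 0.14, adjusted p = 0.00103). Kinesins counted 2 up and 0 down of 25, and 17 up and 1 down without that library, with deviations of -0.49, +0.57 and +0.54 and a median exonic length of 3411 bases. ABC transporters counted 4 up and 3 down of 35 (7 up and 4 down without that library): ABCG22, linked to stomata, fell from 150.4, 139 and 143 to 66.7, 71.3 and 66.1 CPM (log2 fold change -1.08, SE 0.11, adjusted p = 0.00112), and ABCG4 fell from 1.33, 1.13 and 1.51 to 0.282, 0.309 and 0.532 CPM (log2 fold change -1.8, SE 0.31, adjusted p = 0.00876). Among aquaporins 2 up and 0 down of 26 were called (2 up and 11 down without that library), and NLM1, a channel of the NOD26 group, rose from 0.026, 0.0805 and 0.165 to 0.487, 0.688 and 0.647 CPM (log2 fold change +2.73, SE 0.48, adjusted p = 0.0104).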
